A study of Mus musculus with 6 samples.

Results

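The vascular endothelial growth factor (VEGF) family was defined by name as 9 genes, the ligands *Vegfa*, *Vegfb*, *Vegfc*, *Vegfd* and *Pgf*, the receptors *Flt1* and *Kdr*, and the neuropilins *Nrp1* and *Nrp2*. Of these, 7 were measured among the 16300 genes of the deposited expression table, namely 4 ligands, 1 receptor and 2 neuropilins, and all 7 passed the minimum mean level used for testing. *Pgf* and *Flt1* were not analysed here. Granulosa cells (GCs) form the layer around the oocyte in a growing follicle, where they make estrogen and progesterone. Dihydrotestosterone (DHT) is the potent androgen that aromatase cannot turn into estrogen. RNA-seq was performed on primary GC cultures from wild type C57BL/6J mice aged 8 to 9 weeks, with 3 control libraries and 3 libraries from cells given 25 nM DHT for 24 h. GCs of several mice were pooled for each culture, and whether control and DHT libraries of the same number shared a pool is not given in the sources used here. Both groups carried the same genotype, and the labels give no difference between them other than the androgen. The labels name ovary as the tissue and DHT in the treatment text of every sample, so the groups were taken from the separate characteristic that names control or DHT.

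VEGF ligands are secreted dimers that drive the growth and leakiness of blood vessels and, for VEGF-C and VEGF-D, of lymphatic vessels. They bind receptor tyrosine kinases that sit mainly on endothelial cells, and neuropilins act as co-receptors that lack a kinase and also bind class 3 semaphorins. In the ovary the granulosa layer of the follicle has no blood vessels of its own, and GCs secrete VEGF towards the capillaries of the surrounding theca, above all as the follicle matures and turns into the corpus luteum. *Vegfa* is the main angiogenic ligand, *Vegfb* binds the receptor encoded by *Flt1*, and *Vegfc* and *Vegfd* bind that encoded by *Flt4*, with *Vegfc* also binding that of *Kdr* after proteolytic maturation.

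DHT lowered 2 of the 7 measured genes. The lymphangiogenic ligand *Vegfd* fell 3.20-fold, and the co-receptor *Nrp1* fell 1.84-fold, while none of the 7 rose at an adjusted p of at most 0.05 (limma with Benjamini-Hochberg adjustment). The same threshold called 4.66% of the 16292 genes tested lower and 6.52% higher, 11.2% in all. *Vegfd* was the 1 gene of the family that also passed an absolute log2 fold change above 1, a pair of thresholds met in the downward direction by 0.399% of the genes tested and in either direction by 1.31%, with 0.908% upward. In the other 5 genes the adjusted p was above 0.05, and 1 of them, *Vegfa*, had an unadjusted p of at most 0.05. The values of the control and DHT libraries did not overlap for *Vegfa*, *Vegfd* and *Nrp1*, which is 3 of 7 genes beside 30.6% of all genes tested.

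The promoters of the genes in which the groups did not overlap are shown first, so that the letters around their start sites can be compared. Each is the RefSeq sequence (GRCm38.p6) from 250 bases before to 50 bases after the start site, written 5′ to 3′ on the strand of the gene. The *Vegfd* window lies at chrX:164373272-164373571 on the plus strand, the *Nrp1* window at chr8:128358823-128359122 on the plus strand, and the *Vegfa* window, the nearer to the annotated gene start of 2 listed, at chr17:46032328-46032627 on the minus strand. Capitals mark TATAAA in *Vegfd*, a core of the hypoxia response element (CACGC) and a GC box (GGGCGG) in *Nrp1*, and GC boxes in *Vegfa*.
Vegfd: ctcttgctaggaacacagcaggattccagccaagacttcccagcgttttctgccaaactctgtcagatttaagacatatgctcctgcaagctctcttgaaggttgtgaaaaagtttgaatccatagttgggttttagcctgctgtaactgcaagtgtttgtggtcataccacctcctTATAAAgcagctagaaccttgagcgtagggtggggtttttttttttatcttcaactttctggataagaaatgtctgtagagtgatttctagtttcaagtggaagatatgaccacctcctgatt
Nrp1: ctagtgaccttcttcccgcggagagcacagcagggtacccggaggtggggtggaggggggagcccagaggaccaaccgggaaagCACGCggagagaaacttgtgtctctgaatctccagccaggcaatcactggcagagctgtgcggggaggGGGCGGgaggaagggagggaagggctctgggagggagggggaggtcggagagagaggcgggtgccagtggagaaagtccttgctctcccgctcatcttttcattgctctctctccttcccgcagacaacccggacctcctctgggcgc
Vegfa: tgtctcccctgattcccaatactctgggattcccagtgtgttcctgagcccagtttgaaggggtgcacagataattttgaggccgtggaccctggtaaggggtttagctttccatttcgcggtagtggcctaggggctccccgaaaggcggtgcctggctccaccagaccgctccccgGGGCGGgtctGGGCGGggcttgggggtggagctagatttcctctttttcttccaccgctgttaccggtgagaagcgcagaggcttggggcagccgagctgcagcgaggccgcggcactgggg

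The *Vegfd* promoter had a GC content of 42.0% and 2 CpG dinucleotides, against medians of 52.7% and 7 over 32851 RefSeq promoters of the same length, and 14.1% of promoters had a lower GC content. Its TATAAA match began 73 bases before the RefSeq start. The GENCODE start of *Vegfd*, at position 164373378, lies inside this window and upstream of that match. The RefSeq window of *Nrp1* lies wholly inside the GENCODE gene, which starts upstream of it at position 128358604. It had a GC content of 64.0% and 14 CpG dinucleotides, with the hypoxia response core beginning 166 bases and the GC box 98 bases before the start. The *Vegfa* promoter had a GC content of 62.0% and 16 CpG dinucleotides, and its GC boxes began 72 and 62 bases before the start. The search covered both strands and used TATAAA for the TATA box, GGGCGG for the GC box, ACGTG and GCGTG for the hypoxia response core, and AGAACA for a half-site of the androgen response element. Among all promoters, 13.6% held the TATA box, 35.7% the GC box, 43.8% the hypoxia response core and 19.0% the androgen half-site. The windows of *Vegfb*, *Kdr* and *Nrp2*, genes in which the groups overlapped, each held 2 hypoxia response cores. These windows held 4, 2 and 5 GC boxes, and that of *Vegfc* held 2 GC boxes and no core. None of the 7 windows of the family held the half-site letters, and a match or its lack in so short a window is a description of these letters and not of binding.

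**Figure D1:**
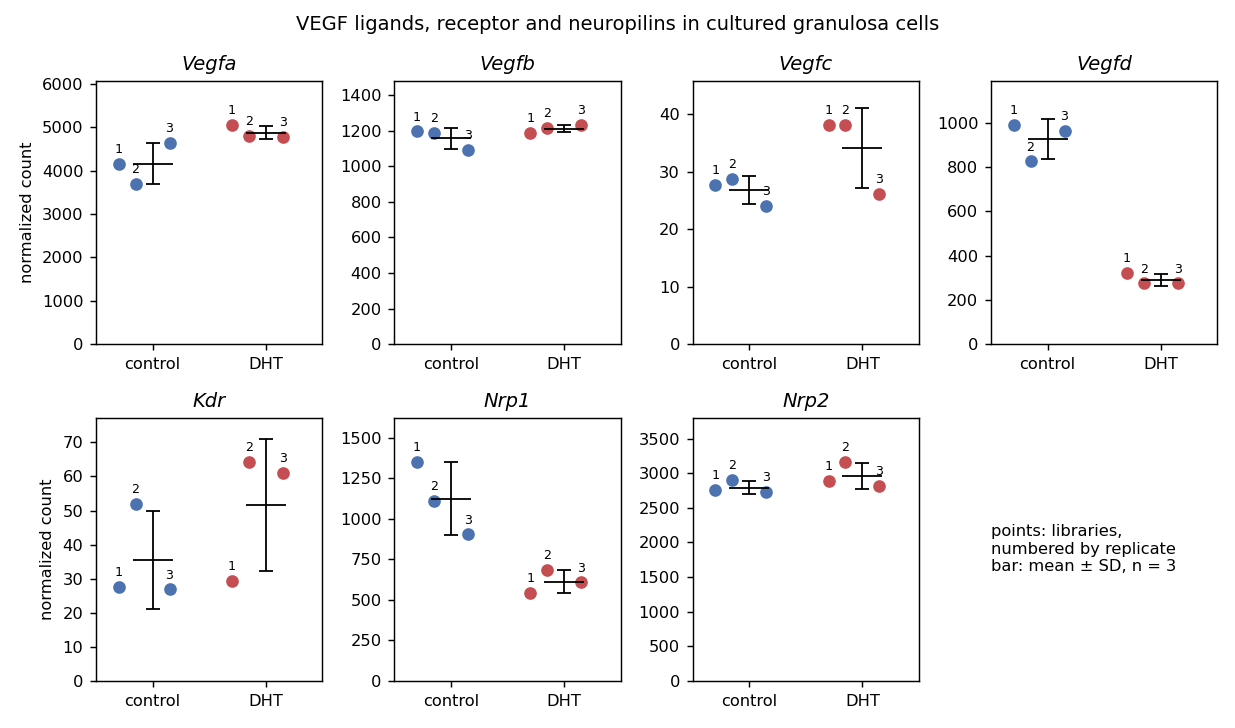
Normalized count (reads divided by the size factor of the library, linear axis from 0) of each measured VEGF gene in the 3 control and 3 DHT libraries, with points numbered by replicate and bars at the mean ± SD. The DHT points of *Vegfd* (274 to 321) and *Nrp1* (543 to 684) sit below all control points, those of *Vegfa* (4776 to 5051) sit above them, and the points of the other 4 genes overlap.

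*Vegfa* (ENSMUSG00000023951, chr17:46016993-46032369, minus strand, GRCm38) had normalized counts of 4156, 3699 and 4627 in control replicates 1, 2 and 3 and of 5051, 4788 and 4776 in the DHT libraries. The lowest DHT library was above the highest control library, and the control libraries were spread more widely than the DHT libraries. The mean was 4161 ± 464 (SD, n = 3) in control GCs and 4872 ± 155 (SD, n = 3) with DHT, a ratio of 1.17. The log2 fold change, on the log2(normalized count + 1) scale used throughout, was 0.23 (SE 0.072, 95% confidence interval 0.07 to 0.40), with an adjusted p of 0.074 (limma with Benjamini-Hochberg adjustment). Without control replicate 3, the highest control library, the log2 fold change was 0.31 and the adjusted p from limma was 0.0068, so the call on *Vegfa* turned on that library. Without control replicate 2, the lowest control library, the log2 fold change was 0.15 and the adjusted p from limma was 0.16. These are bulk cultures, in which fewer cells of a type and less RNA per cell cannot be told apart.

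*Vegfb* (ENSMUSG00000024962, chr19:6982473-6987651, minus strand), a ligand known mainly from heart and muscle, had normalized counts of 1196, 1188 and 1090 in the control libraries and of 1190, 1215 and 1233 in the DHT libraries. The groups overlapped. The mean was 1158 ± 58.8 (SD, n = 3) without and 1213 ± 21.7 (SD, n = 3) with DHT. The log2 fold change was 0.07, with a 95% confidence interval of -0.05 to 0.19 and an adjusted p of 0.47 (limma with Benjamini-Hochberg adjustment).

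*Vegfc* (ENSMUSG00000031520, chr8:54077606-54187096, plus strand), the major lymphangiogenic ligand, was low, with 24 to 39 reads per library (estimated from the common step of its values). Its normalized counts were 27.7, 28.8 and 24.1 in the control libraries and 38.2, 38.2 and 26.1 in the DHT libraries. DHT replicates 1 and 2 were above all control libraries, and DHT replicate 3 lay among them. The mean was 26.9 ± 2.47 (SD, n = 3) without and 34.2 ± 6.96 (SD, n = 3) with DHT, a log2 fold change of 0.32 with a 95% confidence interval of -0.21 to 0.84 and an adjusted p of 0.44 (limma with Benjamini-Hochberg adjustment). At this depth, neither a fall of the size of that interval's lower bound nor a rise of the size of its upper bound was separated from no change.

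*Vegfd* (ENSMUSG00000031380, chrX:164373378-164402650, plus strand), the other ligand of the lymphatic receptor, had normalized counts of 990.4, 825 and 964 in control replicates 1, 2 and 3. In the DHT libraries the normalized counts were 321, 275 and 274. Every DHT library lay far below every control library, and the relative spread was alike in the 2 groups, with coefficients of variation of 9.59% and 9.24%. The mean fell from 927 ± 88.8 (SD, n = 3) to 290.04 ± 26.8 (SD, n = 3), a log2 fold change of -1.67 (SE 0.094, 95% confidence interval -1.88 to -1.46) with an adjusted p of 3.4e-05 (limma with Benjamini-Hochberg adjustment). By p-value *Vegfd* ranked 12 among the 16292 genes tested. The reads behind these values numbered 252 to 1041 per library. With each library left out in turn, the log2 fold change lay between -1.75 and -1.62 and the adjusted p from limma between 6.1e-05 and 0.00055.

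*Kdr* (ENSMUSG00000062960, chr5:75932827-75978458, minus strand), which encodes the main signalling receptor for VEGF-A on endothelial cells, had 28 to 59 reads per library. Its normalized counts were 27.7, 52.0 and 26.9 in the control libraries and 29.4, 64.4 and 60.9 in the DHT libraries. DHT replicate 1 lay among the control libraries, and control replicate 2 stood well above the other two. The mean was 35.5 ± 14.3 (SD, n = 3) without and 51.6 ± 19.3 (SD, n = 3) with DHT, a log2 fold change of 0.51 with a 95% confidence interval of -0.29 to 1.32 and an adjusted p of 0.42 (limma with Benjamini-Hochberg adjustment). Leaving out single libraries moved it between 0.31 (without DHT replicate 2) and 0.87 (without DHT replicate 1), with adjusted p from 0.14 to 0.73 in limma.

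*Nrp1* (ENSMUSG00000025810, chr8:128358604-128503363, plus strand), the neuropilin that pairs with *Kdr* in arterial endothelium and binds semaphorin 3A in neurons, had normalized counts of 1353, 1112 and 903 in control replicates 1, 2 and 3. The DHT libraries had 543, 684 and 607. The groups did not overlap, and the control libraries ranged more widely than the DHT libraries, with coefficients of variation of 20.0% and 11.5%. The mean fell from 1123 ± 225 (SD, n = 3) to 611 ± 70.5 (SD, n = 3), a log2 fold change of -0.86 (SE 0.14, 95% confidence interval -1.17 to -0.55) with an adjusted p of 0.0044 (limma with Benjamini-Hochberg adjustment), rank 533 of the genes tested. When the variance was not modelled as a function of the level, the adjusted p of *Nrp1* from limma was 0.055 and the call was lost. Without control replicate 3, the lowest control library, the log2 fold change of *Nrp1* was -1.01 and it passed both thresholds. Without control replicate 1, the highest control library, it was -0.72, and the adjusted p of *Nrp1* from limma was at most 0.026 with any 1 library left out. An annotated microRNA, *Mir1903*, shares 80 bases (0.8%) of the merged exons of *Nrp1* on the same strand.

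*Nrp2* (ENSMUSG00000025969, chr1:62703285-62818695, plus strand), the neuropilin of venous and lymphatic endothelium that binds VEGF-C and semaphorin 3F, had normalized counts of 2756, 2898 and 2726 in the control libraries and of 2892, 3169 and 2820 in the DHT libraries. The groups overlapped. The mean was 2793 ± 92.1 (SD, n = 3) without and 2960.1 ± 184 (SD, n = 3) with DHT. The log2 fold change was 0.08, with a 95% confidence interval of -0.03 to 0.20 and an adjusted p of 0.37 (limma with Benjamini-Hochberg adjustment). The 95% confidence intervals of *Nrp1* and *Nrp2* did not overlap, as the plot of the log2 fold changes shows.

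**Figure D2:**
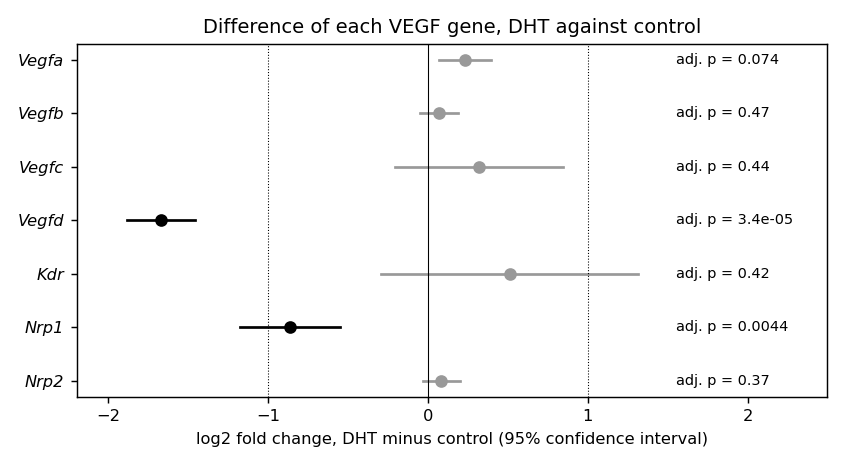
Log2 fold change (DHT minus control, x axis) of each VEGF gene (y axis) with its 95% confidence interval from limma, black where the adjusted p was at most 0.05 and grey elsewhere, with dotted lines at -1 and 1. *Vegfd* at -1.67 lies wholly beyond -1, *Nrp1* at -0.86 spans it, and of the grey intervals those of *Vegfc* and *Kdr*, the genes with the fewest reads, are the widest.

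Levels of different genes were compared as normalized counts per kilobase of merged GENCODE exons. In control GCs the order from high to low was *Vegfa* at 971 ± 108 (SD, n = 3), *Vegfb* at 722 ± 36.6, *Vegfd* at 385 ± 36.9, *Nrp2* at 236 ± 7.78, *Nrp1* at 115 ± 23.0, *Vegfc* at 11.0 ± 1.01 and *Kdr* at 3.94 ± 1.58 per kilobase. *Vegfa* stood at the percentile 87.5 of the 16251 tested genes with an exonic length and *Kdr* at the percentile 4.04, and *Vegfc*, at the percentile 13.4, was the ligand nearest to *Kdr*. With DHT *Vegfa* was at 1137 ± 36.3, *Vegfb* at 756 ± 13.5, *Nrp2* at 249.97 ± 15.6, *Vegfd* at 120.4 ± 11.1, *Nrp1* at 62.5 ± 7.21, *Vegfc* at 13.9 ± 2.84 and *Kdr* at 5.71 ± 2.14 per kilobase. *Vegfd* passed from place 3 to place 4, below *Nrp2*, and its percentile from 69.7 to 44.2. No pair of neighbours in either order had ranges that overlapped over the 3 libraries. These levels rest on all annotated exons of a gene, and a shorter isoform in use would raise the true level per length.

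Among the 4 measured ligands, *Vegfd* made up 19.2%, 17.5% and 18.5% of the summed level per kilobase in the control libraries. In the DHT libraries its share was 6.44%, 5.7% and 5.67%. The mean share of *Vegfd* was 18.4% ± 0.87 without and 5.94% ± 0.44 with DHT (SD, n = 3). The share of *Vegfa* was 46.4% ± 3.0 and 56.1% ± 0.78, and that of *Vegfb* 34.7% ± 3.2 and 37.3% ± 1.3. The share of *Vegfc* lay between 0.453% and 0.778% over the 6 libraries, with means of 0.528% and 0.687%. The sum over the ligands was 2088 ± 114 per kilobase without and 2027 ± 36.5 with DHT, with ranges of 1958 to 2170 and 2004 to 2069, so the summed ligand level of the DHT libraries lay within the control range.

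**Figure D3:**
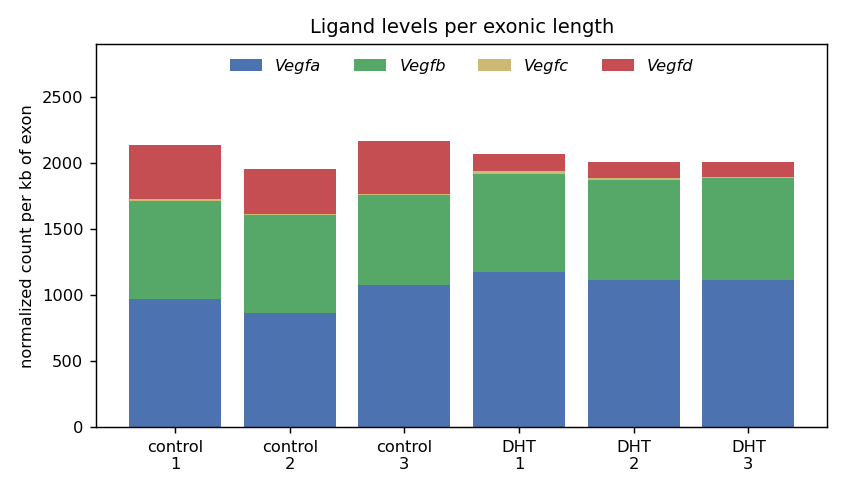
Stacked bars of the normalized count per kilobase of exon (y axis, from 0) of *Vegfa*, *Vegfb*, *Vegfc* and *Vegfd* in each of the 6 libraries (x axis). The *Vegfd* segment shrinks from 343 to 411 in the control libraries to 114 to 133 in the DHT libraries, while the full height stays between 1958 and 2170.

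A ratio of genes within a library does not depend on how the libraries were scaled, and 6 such ratios of levels per length were compared. The ratio of *Vegfd* to *Vegfa* was 0.424, 0.397 and 0.371 in the control libraries and 0.113, 0.102 and 0.102 in the DHT libraries. The ratio was lower in all DHT libraries, and the mean log2 ratio differed by -1.91. The ratio of *Vegfd* to *Vegfc*, the ligands that share the receptor of *Flt4*, was 36.4, 29.1 and 40.7 without and 8.55, 7.32 and 10.7 with DHT, a difference of -2.00 on the log2 scale. For both ratios the two-sided exact permutation test gave p = 0.1, and 0.15 after Benjamini-Hochberg adjustment over the 6 ratios. That 0.1 is the smallest p that 3 against 3 libraries allow in this test, so no ratio could pass 0.05 by it.

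The ratio of *Nrp1* to *Nrp2* was 0.594, 0.464 and 0.401 in the control libraries and 0.227, 0.261 and 0.261 in the DHT libraries. The groups did not overlap, and the mean log2 ratio differed by -0.95 (exact permutation p = 0.1, adjusted 0.15). The ratio of *Kdr* to *Nrp1* went the other way, with 0.0222, 0.0507 and 0.0322 without and 0.0586, 0.102 and 0.109 with DHT, a difference of 1.39 on the log2 scale (exact permutation p = 0.1, adjusted 0.15). That ratio carries the few reads of *Kdr* and the fall of *Nrp1* in its denominator, and *Kdr* itself overlapped between the groups. The ratios of *Vegfb* to *Vegfa* and of *Vegfc* to *Vegfa* overlapped between the groups, with log2 differences of -0.17 (exact permutation p = 0.3, adjusted 0.36) and 0.10 (exact permutation p = 0.6, adjusted 0.6).

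The lymphatic ligands reach cells through *Flt4*, which encodes their preferred receptor. *Flt4* had normalized counts of 58.4, 80.8 and 67.6 in the control libraries and of 68.5, 52.4 and 64.2 in the DHT libraries. The groups overlapped, and the log2 fold change was -0.15 (SE 0.185, adjusted p 0.66, limma with Benjamini-Hochberg adjustment). VEGF-C and VEGF-D are made as long precursors that proteases trim, and of 7 genes listed for that maturation 1 fell, none rose and 6 did not pass. That is 14.3% called, near the 11.2% of all genes, and the median log2 fold change was -0.01 beside -0.01 over all genes tested. The gene that fell was *Ccbe1*, which encodes the secreted protein that helps ADAMTS3 cleave VEGF-C. Its normalized counts were 877, 841 and 936 in the control libraries and 602, 680 and 645 in the DHT libraries. All DHT libraries were lower, with a log2 fold change of -0.46 (adjusted p 0.0028, limma with Benjamini-Hochberg adjustment).

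Of 34 genes of VEGF receptor signalling tested, 4 rose, 2 fell and 28 did not pass, 17.6% called beside 11.2% of all genes, with a median log2 fold change of 0.03. The largest rises were of *Shb*, an adaptor that docks on the activated receptor, from 608 ± 16.7 to 923 ± 68.5 normalized counts (log2 fold change 0.60, adjusted p 0.00067), and of *Sphk1*, which makes sphingosine 1-phosphate, from 303 ± 39.7 to 439 (log2 fold change 0.53, adjusted p 0.021). The 2 that fell were *Prkca*, a protein kinase C, with a log2 fold change of -0.30 (adjusted p 0.0073), and *Mapk14*, the p38 kinase, with -0.15 (adjusted p 0.029). The remaining rises, of the kinases *Fyn* (0.24, adjusted p 0.0091) and *Mapkapk2* (0.16, adjusted p 0.019), are named after their values were seen. All these adjusted p-values come from limma with Benjamini-Hochberg adjustment. These kinases and adaptors serve many receptors, and their transcripts do not measure signalling.

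Neuropilins also serve the class 3 semaphorins, and of 13 semaphorins, plexins and adaptors listed with them 1 rose, 2 fell and 10 did not pass, 23.1% called beside 11.2% of all genes, with a median log2 fold change of -0.14. *Sema3e*, a ligand that binds plexin D1 directly, fell from 2331 ± 76.5 to 1680 ± 83.5 normalized counts, a log2 fold change of -0.47 (adjusted p 0.0005, limma with Benjamini-Hochberg adjustment). *Sema3c*, a neuropilin ligand, fell from 8149 ± 771 to 6496, a log2 fold change of -0.32 (adjusted p 0.011, limma). *Sema3g*, a ligand of *Nrp2*, rose from 191 ± 34.8 to 297 normalized counts, a log2 fold change of 0.65 (adjusted p 0.017, limma). None of these 3 genes overlapped between the groups.

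Of 10 matrix genes whose products bind VEGF or restrain vessels, 3 rose, none fell and 7 did not pass, 30.0% called beside 11.2% of all genes, with a median log2 fold change of 0.09. The summed normalized counts of the list were lower in all DHT libraries, at 362745 to 386037 beside 410629 to 469022, and most of that sum was *Thbs1*, an inhibitor of vessel growth named after its values were seen, whose log2 fold change of -0.28 did not pass (adjusted p 0.053, limma). *Col18a1*, the collagen that releases endostatin, rose from 110.3 ± 27.8 to 346 normalized counts, a log2 fold change of 1.67 (SE 0.186, adjusted p 0.00069, limma with Benjamini-Hochberg adjustment). *Gpc1*, a heparan sulfate proteoglycan of the cell surface, rose by 0.40 on the log2 scale (adjusted p 0.0042, limma). The third, *Timp3*, an inhibitor of metalloproteinases that also blocks VEGF binding to *Kdr*, is named after its values were seen, with a log2 fold change of 0.34 (adjusted p 0.003, limma).

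*Hif1a*, the oxygen-regulated subunit of a hypoxia-inducible factor, had normalized counts of 23092, 24509 and 24800 in the control libraries and of 30264, 29370 and 29451 in the DHT libraries. All DHT libraries were higher, with a log2 fold change of 0.30 (SE 0.0414, adjusted p 0.0021, limma with Benjamini-Hochberg adjustment). The study itself reported no effect of DHT on *Hif1a* mRNA by quantitative PCR. A link between *Hif1a* and *Vegfa*, which did not pass, was not tested. Of 10 oxygen-sensing regulators, 3 rose, none fell and 7 did not pass, 30.0% called beside 11.2% of all genes, with a median log2 fold change of 0.10. Beside *Hif1a* these were its partner *Arnt2* (0.22, adjusted p 0.041, limma) and, named after its values were seen, the prolyl hydroxylase *Egln1* (0.15, adjusted p 0.048, limma).

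Of 15 hypoxia target genes, 4 rose, 1 fell and 10 did not pass, 33.3% called beside 11.2% of all genes, with a median log2 fold change of 0.11. *Ndrg1*, a stress-induced gene, rose from 1040.4 ± 105 to 1726 normalized counts, a log2 fold change of 0.73 (adjusted p 0.00075, limma with Benjamini-Hochberg adjustment). *Adm*, which encodes the vasodilator adrenomedullin, rose by 0.53 on the log2 scale (adjusted p 0.0071, limma), and the rises of *Bnip3* (0.42, adjusted p 0.0004, limma) and *Pfkfb4* (0.35, adjusted p 0.02, limma) are named after their values were seen. *Kdm3a*, a histone demethylase, was the gene that fell, by 0.24 on the log2 scale (adjusted p 0.0092, limma). For *Kdm3a* the study's own quantitative PCR showed no effect of DHT. The named genes of all these lists appear in the plot of the pathway lists.

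**Figure D4:**
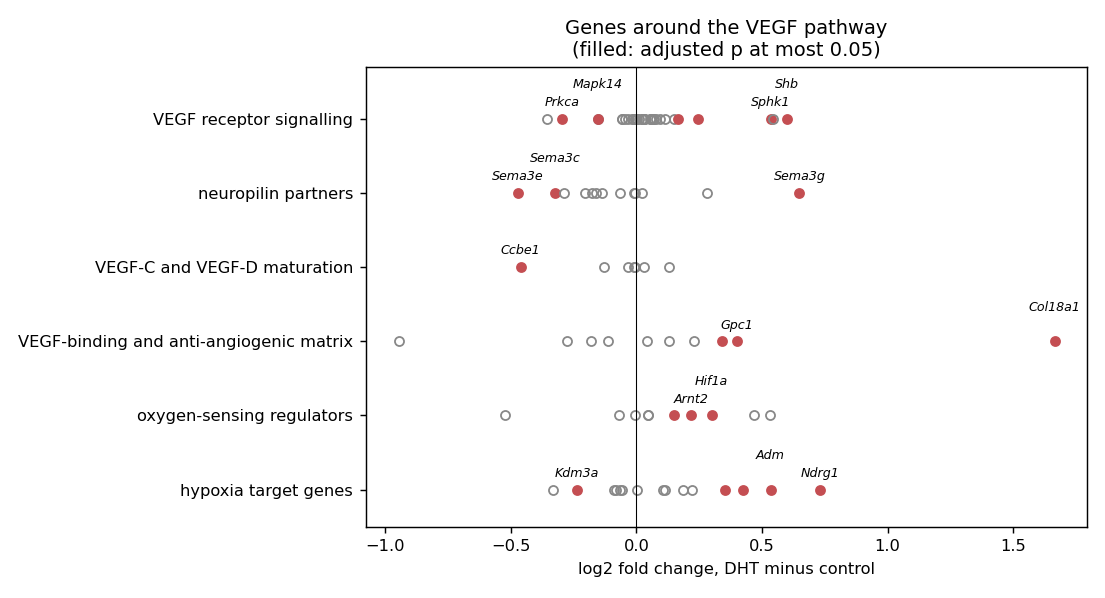
Log2 fold change (DHT minus control, x axis) of every tested gene of 6 lists around the VEGF family (y axis), filled red where the adjusted p from limma was at most 0.05 and open where it was above. *Col18a1* at 1.67 stands alone at the right, *Sema3e* and *Ccbe1* lie near -0.47 and -0.46, and most open points lie near 0.

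Since *Kdr*, *Flt4* and the neuropilins are also genes of vessels, endothelial markers were read in the same libraries. Of 17 listed markers 9 were tested, 1 rose, none fell and 8 did not pass (11.1% called, close to the 11.2% of all genes), and the highest group mean among them was 121 normalized counts. Their summed normalized counts were 410, 453 and 376 in the control libraries and 368, 452 and 465 in the DHT libraries, so the groups overlapped. *Cdh5*, the endothelial cadherin, had a log2 fold change of 0.015 (adjusted p 0.98, limma with Benjamini-Hochberg adjustment), and *Pecam1*, the adhesion molecule CD31, one of 0.30 (adjusted p 0.38, limma). The marker that rose was *Erg*, an endothelial transcription factor, from 6.93, 19.5 and 10.2 to 31.3, 52.4 and 43.5 normalized counts (log2 fold change 1.80, adjusted p 0.016, limma). None of these 3 markers was at 0 in any library. The part of endothelial cells in the values of *Kdr* was not tested.

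The genes with the pattern most like that of *Vegfd* were taken as the 5 with the smallest root mean square difference of log2 values, centred on each gene's mean, over the 6 libraries. They were *Gata3*, a transcription factor, at 0.153, *Slitrk4*, a neuronal membrane protein, at 0.206, *Dlk1*, an imprinted inhibitor of adipocyte differentiation, at 0.228, *Nqo1*, a quinone reductase, at 0.232, and *Hmox1*, the inducible heme oxygenase, at 0.243. *Gata3* went from 411 ± 20.1 to 134 ± 20.3 normalized counts, a log2 fold change of -1.62. The log2 fold changes of *Slitrk4*, *Dlk1*, *Nqo1* and *Hmox1* were -1.40, -1.59, -1.89 and -1.21. Being picked for likeness to *Vegfd*, they carry no test here.

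**Figure D5:**
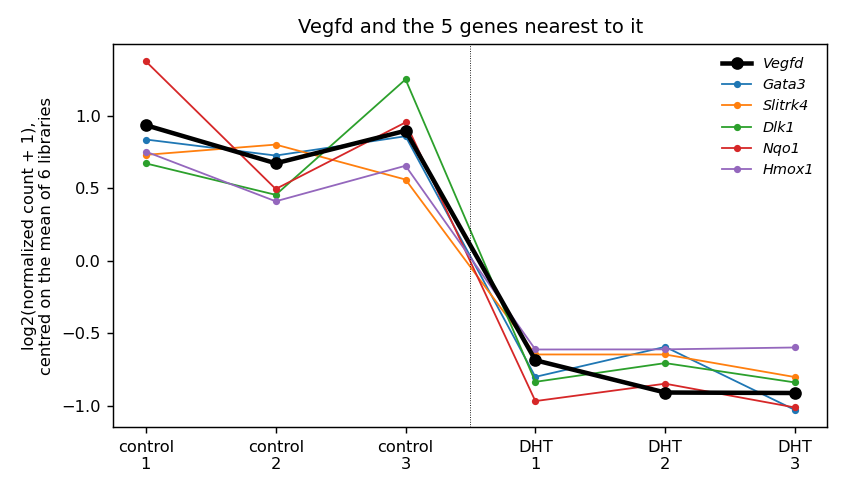
Log2(normalized count + 1) centred on the mean of the 6 libraries (y axis) for *Vegfd* (black) and the 5 genes nearest to it, in each library (x axis), with lines joining the points of 1 gene. All 6 genes lie above 0 in the 3 control libraries and below 0 in the 3 DHT libraries, *Gata3* closest to *Vegfd* and *Nqo1* and *Dlk1* with the widest spread among control libraries.

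The libraries held 36111177 to 41928585 reads on genes, if the step of each library is taken as 1 read. Granulosa markers were present in every library, with summed normalized counts of 199710.0 to 231625 over 12 genes and with *Foxl2*, the granulosa identity factor, between 2194 and 2588. DHT replicate 2 stood apart in oocyte transcripts, whose sum over 7 markers was 39.3 normalized counts in it and 299 to 785 in the other 5 libraries. Without DHT replicate 2, *Vegfd* had a log2 fold change of -1.64 (adjusted p 0.00039, limma) and *Nrp1* one of -0.95 (adjusted p 0.0099, limma), so both calls were kept. Sums of 4 lymphatic endothelial markers were 3767 to 4470 normalized counts in control and 3793 to 4176 in DHT-treated GCs, and *Prox1*, the defining lymphatic factor, had a log2 fold change of -0.02 (adjusted p 0.94, limma). Most of that sum was *Pdpn*, a mucin-like protein that other cells make too, at 3517 to 4215 normalized counts. The part of lymphatic cells in the values of *Vegfd* was not tested.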

How the data were processed

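Transcripts were measured by RNA-seq in 3 control and 3 DHT libraries. Per the labels and the study's methods, the authors trimmed reads with Trimmomatic 0.36, mapped them to GRCm38 with STAR 2.5.2b and counted exonic reads with featureCounts of Subread 1.5.2. The strand setting and the annotation release are not given in the sources used here. The deposited signal is a normalized count, which the authors made by dividing reads per gene by a size factor from DESeq2. Every value of a library was a whole multiple of 1 step (100% within a tolerance of 0.02 steps), and all read numbers given take that step as 1 read. A separate check could not settle the step in 3 libraries, so no count test was run and tests used log2(normalized count + 1), which understates the changes of low genes. The table also holds the authors' log2 fold changes, p-values and adjusted p-values, which were not used, and neither was a second table that repeats some of its genes.

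The intensity-trend fit of limma 3.58.1 (R 4.3.3) covered all 16292 genes with a mean of at least 10, with Benjamini-Hochberg adjustment over all of them. A gene was called where its adjusted p was 0.05 or less, and passed both thresholds where its absolute log2 fold change was also above 1. Ratios were compared by exact two-sided permutation tests in SciPy 1.17.1, for which 3 against 3 libraries cannot go below p = 0.1. P-values measure the spread between these libraries. Exonic lengths came from GENCODE M21, which placed 16259 of the 16300 genes. All 7 measured genes matched a RefSeq promoter.

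The 9 genes and the gene lists were chosen with earlier results of these data known. From each list, up to 2 genes with the largest rise and up to 2 with the largest fall past the adjusted p are named, with *Hif1a*, *Flt4* and defining markers whatever their values. The fit was tested on simulated data. Alternatives were pseudocounts of 0.5 and 8, no filter, a mean of at least 50, TMM scaling, quantile normalization, no intensity trend, the replicate block and each library left out.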

Additional observations from a re-analysis of the deposited data

How the results depend on the processing

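The fall of *Vegfd* kept its direction and passed under all 14 alternatives (log2 fold change -1.75 to -1.62, adjusted p from limma 2.9e-05 to 0.008). *Nrp1* kept its direction in all 14 and lost the call in 1: without the intensity trend its log2 fold change was -0.86 with an adjusted p of 0.055 from limma, which left 1 of the family lower, 501 genes higher and 303 lower by adjusted p (1063 and 760 with it) and 40 lower past both thresholds (65). The cause was not tested. A mean of at least 50 left 89 genes higher and 42 lower past both thresholds (148 and 65), with fewer genes tested, and *Vegfc* and *Kdr* were below that mean. With single libraries left out, *Vegfa* ranged from 0.15 to 0.31 on the log2 scale (adjusted p from limma 0.0068 to 0.19), and the genes of the family called higher numbered 0 to 1, those called lower 2 to 2 and those past both thresholds 1 to 2, the upper ends being *Vegfa* and *Nrp1* without control replicate 3. Over all genes, 96 to 194 were then higher and 41 to 91 lower past both thresholds, and 586 to 1240 higher and 351 to 863 lower by adjusted p. Same-numbered libraries did not deviate together (correlations 0.0058, 0.067 and -0.24). With 3 libraries per group this does not settle whether they shared a pool. With the replicate block 633 genes were higher and 357 lower, and no call on the VEGF genes changed. *Vegfb*, *Vegfc*, *Kdr* and *Nrp2* kept their direction and missed the threshold under every alternative run that tested them, *Kdr* ranging from 0.31 to 0.87 and *Vegfc* from 0.23 to 0.50 (without DHT replicate 3), *Vegfb* from 0.02 (without control replicate 3) to 0.09 and *Nrp2* from 0.03 (without DHT replicate 2) to 0.12 on the log2 scale, and 5 of the 6 ratios kept theirs, while the log2 difference of *Vegfc* to *Vegfa* ranged from -0.06 to 0.26. That of *Vegfb* to *Vegfa* ranged from -0.29 to -0.06. The share of called genes that were higher was 58.3% and ranged from 54.3% under quantile normalization to 63.9% under the replicate block. The quasi-likelihood and Wald count tests that had been planned were not run. *Vegfc* and *Kdr* had the fewest reads of the family, 24 to 59 per library, and *Kdr* also the largest coefficients of variation (40.2% and 37.4%).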

Other observations

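Transcripts that mark cells other than granulosa cells were measured in the cultures, and some differed between the groups. Of 10 listed mural markers, *Rgs5*, *Kcnj8* and *Abcc9* were not tested. Of the 7 tested, 3 rose and none fell (42.9% called beside 11.2% of all genes). Summed normalized counts were 7654, 11559 and 10384 in control and 12957, 13566 and 13908 in DHT libraries. Most of that sum was *Acta2* in every library. *Acta2*, smooth muscle actin, rose from 5399 ± 1070.0 to 9012 ± 762 normalized counts (log2 fold change 0.76, adjusted p 0.0056, limma), and *Myh11*, smooth muscle myosin (0.67, adjusted p 0.013, limma), and *Cspg4*, the pericyte proteoglycan NG2 (0.89, adjusted p 0.019, limma), rose with it. Of 10 listed macrophage and leukocyte markers, *Adgre1*, *Cx3cr1*, *Itgam* and *C1qa* were not tested. Of the 6 tested, 1 fell and none rose (16.7% called beside 11.2% of all genes), with a median log2 fold change of -0.45. The marker that fell was *Csf1r*, at -0.64 (adjusted p 0.027, limma). *Ptprc*, the pan-leukocyte antigen, had a log2 fold change of 0.72 (adjusted p 0.22, limma). None of 7 theca and stroma, 4 lymphatic or 7 oocyte markers tested passed in either direction, beside 11.2% of all genes called. Their median log2 fold changes were -0.24, -0.09 and -0.99. The theca markers *Cyp17a1* and *Insl3*, the lymphatic markers *Lyve1* and *Ccl21a* and the oocyte marker *Figla* were not tested. The oocyte sum was 39.3 normalized counts in DHT replicate 2, while DHT replicates 1 and 3, at 536 and 556, lay within the control range of 299 to 785. Their part in the values of the VEGF genes was not tested.

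Luteal cells form from granulosa and theca cells after ovulation, and granulosa cells already express some of their markers. Of 7 luteal markers tested, 4 rose and none fell (57.1% called beside 11.2% of all genes), with a median log2 fold change of 0.60. *Prlr*, the prolactin receptor, rose from 3952 ± 450.0 to 7467 ± 520.0 normalized counts (log2 fold change 0.92, adjusted p 0.0002, limma). *Ptgfr*, the prostaglandin F receptor, had normalized counts of 222, 107 and 699 in control and 979.5, 853 and 1168 in DHT libraries, rising by 1.96 on the log2 scale (adjusted p 0.048, limma). The other two, *Hsd3b1* (0.60, adjusted p 0.00046, limma) and *Cyp11a1* (0.49, adjusted p 0.01, limma), encode steroid enzymes and are named after their values were seen. Of 13 listed granulosa markers 12 were tested, and *Cyp19a1*, which encodes aromatase, was not. Of the 12, 1 rose and 2 fell (25.0% called beside 11.2% of all genes). *Hsd17b1*, an estrogenic enzyme, rose by 0.48 (adjusted p 0.0044, limma), *Inha*, the inhibin alpha subunit, fell from 54181 to 35515 normalized counts (log2 fold change -0.61, adjusted p 0.0016, limma), and *Foxl2* fell by 0.15 on the log2 scale (adjusted p 0.049, limma). *Amhr2*, the receptor of anti-Mullerian hormone, had a log2 fold change of -0.19 (adjusted p 0.095, limma).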
